A study of Mus musculus with 15 samples.

Results

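The genes described here are 40 lysosome genes and TFEB-family regulators, taken by symbol from a table of 24891 genes, and all 40 were found in it. They cover 3 transcription factors (TFEB, TFE3 and MITF), 5 genes of the Rag GTPases and the folliculin complex, GPNMB and SQSTM1. They also hold 5 lysosomal membrane proteins, 8 cathepsins and other proteases and 8 hydrolases that act on sugar chains. The rest are 4 genes of lipid handling and 5 subunits of the proton pump known as the V-ATPase. RNA-seq was carried out on 15 mouse libraries in 5 groups of 3, all from subcutaneous tumors of Tsc2-deficient 105K cells, a renal tumor line, grown in Wild-type C57BL/6J mice, males of 6 weeks according to the methods. Bulk tumors carried a non-targeting control shRNA (sh-NC) or the first of a pair of shRNAs against B7-H3, the immune checkpoint encoded by Cd276 (sh-B7-H3 (1)). The remaining 3 groups were tumor cells sorted ex vivo by magnetic depletion of the other cells, and held sh-NC, the same first hairpin, or the other hairpin, named sh-B7-H3 (2). The knockdown cells were selected pools rather than single clones. Every group, the controls included, lacks Tsc2, so the series holds no Tsc2-intact comparison.

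Lysosomes break down proteins, sugars and lipids with hydrolases that work at the acid pH set by the V-ATPase. TFEB, TFE3 and MITF bind short E-box motifs in the promoters of many lysosome genes. Their entry into the nucleus is restrained by mTORC1, which phosphorylates them at the lysosome surface with the help of the Rag GTPases and of folliculin, and Tsc2 is the brake on mTORC1 that these tumor cells have lost.

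The E-box core is CACGTG, and a fuller form with one more base on each side is TCACGTGA. Both read the same on either strand, and every TCACGTGA also holds CACGTG. RefSeq promoter windows (250 bases before to 50 bases after the annotated start, build GRCm38.p6) were found for 34 of the 40 members. CACGTG stood in the window of 13 of these 34 genes, or 38.2%, against 8.09% of all 27025 genes with a window, and counted over windows in 7.15% of all 32851. TCACGTGA stood in 6 of the 34, or 17.6%, against 1.12% of all genes. Other lysosome and autophagy genes, listed further on, lay between: of 96 with a window, 19 (19.8%) held CACGTG and 7 (7.29%) TCACGTGA. A share above that of all genes is therefore not particular to the members. The stretches around the motif are printed below for 4 members that were lower in a knockdown comparison and for 2 that did not pass in any, with CACGTG in capitals. RRAGC lies at chr4:123917286-123917361 on the plus strand, ATP6V1A at chr16:44139350-44139425 on the minus strand, GLA at chrX:134601159-134601255 on the minus strand, ATP6V0D1 at chr8:105566055-105566102 on the minus strand, LAMP1 at chr8:13159065-13159170 on the plus strand and MCOLN1 at chr8:3500413-3500514 on the plus strand.
RRAGC: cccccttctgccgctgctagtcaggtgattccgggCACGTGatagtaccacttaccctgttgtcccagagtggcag
ATP6V1A: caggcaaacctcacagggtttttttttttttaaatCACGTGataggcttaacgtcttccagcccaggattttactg
GLA: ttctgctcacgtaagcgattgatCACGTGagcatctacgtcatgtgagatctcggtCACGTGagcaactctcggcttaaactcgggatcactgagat
ATP6V0D1: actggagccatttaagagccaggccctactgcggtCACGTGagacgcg
LAMP1: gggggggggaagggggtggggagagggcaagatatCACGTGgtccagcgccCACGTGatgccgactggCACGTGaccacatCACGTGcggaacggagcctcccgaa
MCOLN1: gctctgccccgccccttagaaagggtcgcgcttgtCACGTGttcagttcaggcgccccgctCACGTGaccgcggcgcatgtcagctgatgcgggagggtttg
The last 10 bases of the ATP6V0D1 and LAMP1 stretches follow the start, and the ATP6V1A stretch precedes an inner start and lies within the annotated gene. LAMP1, the most abundant of the 6 in sorted sh-NC cells, holds 4 copies of the core, GLA and MCOLN1 hold 2, and RRAGC, ATP6V1A and ATP6V0D1 hold 1. No CACGTG was found in the windows of GPNMB, SQSTM1, GUSB, NEU1, LIPA or CTSK. ATP6V1H, CTSB, ATP6V0D2, CTSH, ASAH1 and NPC1 have no window in the table.

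Across the libraries, levels are given as FPKM, a read density normalised to transcript length and library total, divided by one factor per library (scaled FPKM). The single entry MIR6236 made up between 6.01% and 79.7% of a library's FPKM, with its 3 highest shares in bulk sh-NC replicate 3, bulk sh-B7-H3 (1) replicate 2 and sorted sh-NC replicate 2. The read depth is unknown, and low values put it between 0.47 and 1 times that of sorted sh-NC replicate 1. Cd276 itself stood at 34, 20 and 17.3 scaled FPKM in sorted sh-NC and at 7.29, 14 and 11.5 in sorted sh-B7-H3 (1), without overlap. That fall was not called by the limma test used below (log2 difference -1.04 ± 0.29, adjusted p = 0.0547). Cd276 stood at 23.3, 25.4 and 25.7 in the libraries labelled sorted sh-B7-H3 (2), and at 22.3, 17.8 and 24.4 in those labelled bulk sh-B7-H3 (1) beside 20.8, 23.2 and 23.5 in bulk sh-NC. In these last 2 knockdown groups the target's RNA therefore did not follow the label, and "sh-B7-H3" and "knockdown" below mean the libraries labelled so. The same limma test did not call Cd276 with sorted sh-B7-H3 (2) (log2 difference 0.12 ± 0.23, adjusted p = 0.775). Nor was it called over both hairpins (-0.46 ± 0.38, adjusted p = 0.447) or in bulk (-0.07 ± 0.13, adjusted p = 0.709). The summed level of 15 macrophage markers was 35.4 to 107 in 8 of the 9 sorted libraries, 976 in sorted sh-B7-H3 (2) replicate 1 and 1035 to 1870 in the bulk tumors. C1QA, a defining macrophage gene, stood at 108 in that one sorted library and at 0.863 to 2.85 in the other 8, so this library stands apart from its label. Markers of renal epithelium were present in every library, with summed levels of 1076 to 2653. In bulk RNA, fewer cells of a type and less RNA per cell cannot be told apart.

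The members spanned 3 orders of magnitude in level. In sorted sh-NC cells the highest means per length were those of CD63, a tetraspanin of late endosomes (1003), SQSTM1, the autophagy receptor p62 (998), CTSD, an aspartic protease (912), and LAMP1, a main glycoprotein of the lysosomal membrane (510). Their order is not resolved at the top, since CD63 ran from 699 to 1245 and CTSD from 770 to 1032. The lowest were CTSK, a collagen-cleaving protease (1.8), ATP6V0D2, a V-ATPase isoform of few cell types (1.74), and MITF (0.347). TFEB (4.72) lay below TFE3 (11.8) among the 3 transcription factors.

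Sorted tumor cells with either shRNA were first set against sorted sh-NC cells. This asks how lysosome genes differ with the knockdown label in material depleted of other cells, though not free of them. Of the 39 members tested, 4 were higher and 5 were lower in the 6 knockdown libraries (limma on log2 of scaled FPKM + 1, Benjamini-Hochberg adjusted over all genes, called at an adjusted p under 0.05). This is 23.1% of the members against 20.5% of all 11424 genes tested. The median log2 difference of the members was 0.01, as it was over all genes. The members thus did not move together, and the calls went in both directions. Both single-shRNA comparisons use the same 3 sh-NC libraries. For sh-B7-H3 (1), 3 members were higher and 4 lower, with 13.4% of all genes called, and for sh-B7-H3 (2), 4 were higher and 5 lower, with 19.1% of all genes called.

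**Figure D1:**
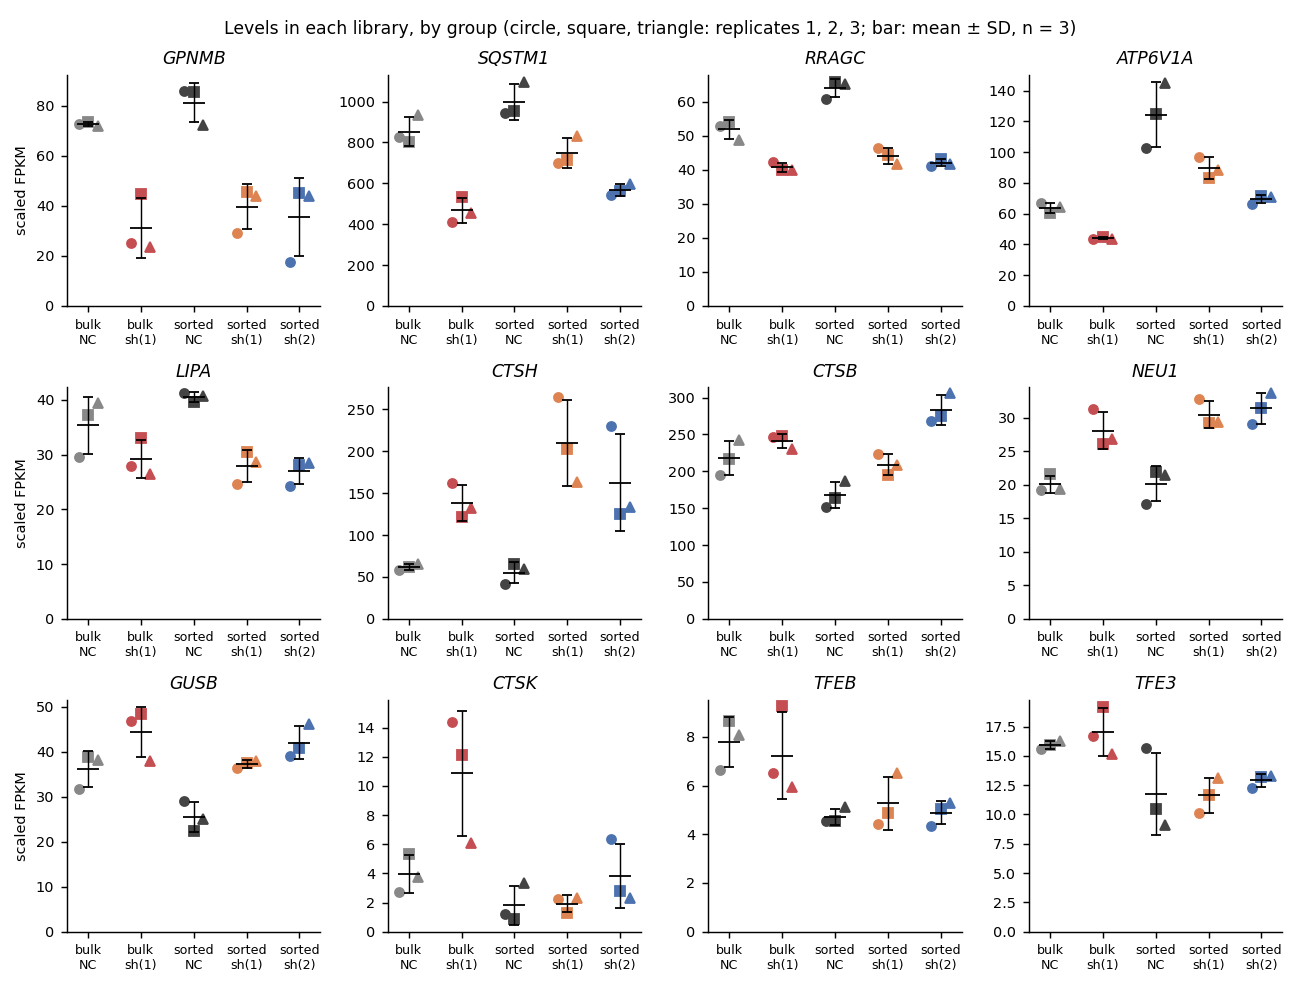
Scaled FPKM (y axis, linear from 0) of 12 member genes in the 15 libraries, by group on the x axis. Points are libraries and bars are the mean ± SD of 3. In GPNMB, SQSTM1, RRAGC and ATP6V1A every knockdown library lies below every sh-NC library of the same material, in CTSH and NEU1 above, while TFEB and TFE3 overlap between knockdown and sh-NC.

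Among the regulators, none of the 3 transcription factors passed the test. TFEB stood at 4.53, 4.53 and 5.1 scaled FPKM in sorted sh-NC, at 4.42, 4.89 and 6.51 in sh-B7-H3 (1) and at 4.35, 5.04 and 5.27 in sh-B7-H3 (2). The groups overlapped, with a log2 difference of 0.08 ± 0.12 (SE, 6 against 3 libraries) and an adjusted p of 0.693. TFE3 stood at 15.7, 10.5 and 9.1 in sh-NC, at 10.1, 11.7 and 13.1 with sh-B7-H3 (1) and at 12.3, 13.2 and 13.3 with sh-B7-H3 (2), and its sh-NC libraries spanned those of the knockdown (log2 difference 0.09 ± 0.15, adjusted p = 0.754). MITF, the family member best known from melanocytes, was listed at 0.402, 0.295 and 0.344 in sh-NC, at 0.604, 0.615 and 0.398 with sh-B7-H3 (1) and at 0.813, 1.01 and 0.75 with sh-B7-H3 (2). Only 1 of these 9 values reached 1, so MITF was too low to be tested.

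RRAGC encodes RagC, the Rag GTPase through which mTORC1 reaches TFEB and TFE3. It stood at 60.9, 65.9 and 65.1 scaled FPKM in sorted sh-NC, at 46.3, 44.5 and 41.7 with sh-B7-H3 (1) and at 41.2, 43.2 and 41.7 with sh-B7-H3 (2). Every knockdown library lay below every control, and RRAGC fell by 0.56 ± 0.08 on the log2 scale (0.678-fold, adjusted p = 0.000838). RRAGD, its close relative, stood at 4.75, 7.53 and 5.86 in sh-NC, at 3.67, 5.11 and 3.91 with sh-B7-H3 (1) and at 1.49, 5.98 and 6.18 with sh-B7-H3 (2). The lowest RRAGD value was that of sh-B7-H3 (2) replicate 1, the groups overlapped and the test was not passed (log2 difference -0.45 ± 0.30, adjusted p = 0.34).

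Folliculin (FLCN) and its partners FNIP1 and FNIP2 act on the Rag GTPases as an activator of their GTP hydrolysis. FLCN stood at 7.84, 7.14 and 8.57 in sh-NC, at 8.19, 7.81 and 8.52 with sh-B7-H3 (1) and at 9.12, 8.53 and 9.82 with sh-B7-H3 (2). FNIP1 stood at 21.2, 20.3 and 19.8 in sh-NC, at 21.5, 18.5 and 17.7 with sh-B7-H3 (1) and at 16.5, 15.8 and 15 with sh-B7-H3 (2). FNIP2 stood at 9.2, 6.7 and 5.81 in sh-NC, at 7.21, 7.57 and 6.93 with sh-B7-H3 (1) and at 7.41, 7.5 and 7.09 with sh-B7-H3 (2). None of the 3 was called, although every FNIP1 value with sh-B7-H3 (2) was below the controls (adjusted p = 0.0627 for that hairpin, 0.214 for both). Over both hairpins the log2 differences were 0.13 ± 0.10 for FLCN (adjusted p = 0.408), -0.22 ± 0.11 for FNIP1 and 0.03 ± 0.12 for FNIP2 (adjusted p = 0.9).

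GPNMB, a transmembrane glycoprotein of melanosomes and lysosomes and a known target of the TFE family, showed the largest fall of any member. It stood at 85.8, 85.6 and 72.3 scaled FPKM in sorted sh-NC, at 29.3, 45.7 and 43.8 with sh-B7-H3 (1) and at 17.4, 45.2 and 43.8 with sh-B7-H3 (2). The highest knockdown library was below the lowest control, and GPNMB fell by 1.16 ± 0.28 on the log2 scale (0.447-fold, adjusted p = 0.0137). The fall was 1.04 ± 0.19 with sh-B7-H3 (1) (adjusted p = 0.0084) and 1.29 ± 0.34 with sh-B7-H3 (2) (adjusted p = 0.0342), each against the same controls. SQSTM1 stood at 944, 952 and 1098 in sh-NC, at 701, 713 and 831 with sh-B7-H3 (1) and at 542, 563 and 599 with sh-B7-H3 (2). Here too the groups did not overlap, and SQSTM1 fell by 0.61 ± 0.16 (0.654-fold, adjusted p = 0.022). With sh-B7-H3 (1) alone its log2 difference was -0.42 ± 0.19 and was not called (adjusted p = 0.221).

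The proteases went the other way where they passed. CTSH, a cathepsin that trims peptides from their amino end, stood at 41, 65.1 and 59.7 scaled FPKM in sorted sh-NC, at 265, 203 and 163 with sh-B7-H3 (1) and at 230, 125 and 133 with sh-B7-H3 (2). Its lowest knockdown value was above its highest control, and its log2 difference of 1.71 ± 0.25 (3.27-fold, adjusted p = 0.000748) was the largest rise among the members. CTSB, an abundant cysteine cathepsin, stood at 152, 164 and 187 in sh-NC, at 223, 195 and 209 with sh-B7-H3 (1) and at 268, 275 and 306 with sh-B7-H3 (2). CTSB rose by a log2 difference of 0.54 ± 0.16 over both hairpins (1.45-fold, adjusted p = 0.0363). With sh-B7-H3 (1) alone the difference was 0.32 ± 0.15 and was not called (adjusted p = 0.242). CTSK stood at 1.19, 0.879 and 3.34 in sh-NC, at 2.21, 1.25 and 2.31 with sh-B7-H3 (1) and at 6.33, 2.81 and 2.31 with sh-B7-H3 (2). Its highest value was in the library that holds macrophage markers, and it did not pass (log2 difference 0.47 ± 0.35, adjusted p = 0.4). Fibroblast markers were summed at 75.9 to 116 in sh-NC, 75.2 to 105 with sh-B7-H3 (1) and 136 to 191 with sh-B7-H3 (2). With sh-B7-H3 (2) COL1A1 (2.78-fold), COL1A2, COL3A1 and COL6A3 were called higher and FBLN1 (0.376-fold) lower. The part of other cells in the CTSK values was not tested.

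Of the 8 hydrolases that act on sugar chains, GUSB and NEU1 passed. GUSB, beta-glucuronidase, stood at 29, 22.3 and 25 in sorted sh-NC, at 36.3, 37.5 and 37.9 with sh-B7-H3 (1) and at 39.1, 40.7 and 46.2 with sh-B7-H3 (2), without overlap. It rose by a log2 difference of 0.62 ± 0.11 (1.54-fold, adjusted p = 0.00244). NEU1, the lysosomal sialidase, stood at 17.2, 21.9 and 21.5 in sh-NC, at 32.8, 29.2 and 29.4 with sh-B7-H3 (1) and at 29.1, 31.5 and 33.7 with sh-B7-H3 (2). It also rose in every library, by 0.60 ± 0.10 (1.51-fold, adjusted p = 0.00214). GLA, alpha-galactosidase A, stood at 22.2, 29.5 and 32.5 in sh-NC, at 34.1, 25.1 and 26.8 with sh-B7-H3 (1) and at 28.6, 27.5 and 27.5 with sh-B7-H3 (2), and did not pass (log2 difference 0.02 ± 0.13, adjusted p = 0.945).

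Of the 4 genes of lipid handling, LIPA passed. LIPA, the acid lipase that frees cholesterol and fatty acids, stood at 41.3, 39.6 and 40.8 in sorted sh-NC, at 24.7, 30.4 and 28.7 with sh-B7-H3 (1) and at 24.3, 28.2 and 28.5 with sh-B7-H3 (2). All 6 knockdown libraries were lower, and LIPA fell by 0.55 ± 0.10 (0.683-fold, adjusted p = 0.00225). NPC1, which exports cholesterol from the lysosome, is counted here with the membrane proteins. It stood at 15.3, 9.24 and 7.38 in sh-NC, at 11, 12.2 and 11.8 with sh-B7-H3 (1) and at 13.4, 15.2 and 13.7 with sh-B7-H3 (2). NPC1 did not pass (log2 difference 0.31 ± 0.19, adjusted p = 0.29).

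Of the 5 V-ATPase subunits, ATP6V1A was called over both hairpins. It encodes the subunit that hydrolyses ATP, and it stood at 103, 125 and 145 in sorted sh-NC, at 97.1, 83.5 and 88.5 with sh-B7-H3 (1) and at 66.2, 71.4 and 70.9 with sh-B7-H3 (2). No knockdown library reached a control, and ATP6V1A fell by 0.64 ± 0.15 (0.644-fold, adjusted p = 0.0136). With sh-B7-H3 (1) alone its log2 difference was -0.45 ± 0.165 and was not called (adjusted p = 0.128). ATP6V1H, a regulatory subunit, stood at 61, 67.7 and 88.4 in sh-NC, at 81.2, 65.4 and 63 with sh-B7-H3 (1) and at 67.6, 58.1 and 62.4 with sh-B7-H3 (2). ATP6V0D1, a stalk subunit, stood at 94.9, 109 and 124 in sh-NC, at 97.2, 92 and 96.8 with sh-B7-H3 (1) and at 86.8, 77.4 and 90.2 with sh-B7-H3 (2). Neither passed, at log2 differences of -0.12 ± 0.14 (ATP6V1H, adjusted p = 0.613) and -0.27 ± 0.12 (ATP6V0D1, adjusted p = 0.131).

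ATP6V0D2 moved differently with the hairpins. It stood at 1.36, 2.18 and 1.68 in sorted sh-NC, at 0.929, 0.86 and 0.544 with sh-B7-H3 (1) and at 1.69, 4.78 and 4.39 with sh-B7-H3 (2). With sh-B7-H3 (1) it fell by 0.62 ± 0.15 (adjusted p = 0.0309), while with sh-B7-H3 (2) the difference was 0.69 ± 0.29 and was not called (adjusted p = 0.152). These values are near the floor of 1 scaled FPKM used for testing, where the added 1 makes log2 differences small.

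The 18 members that are neither a called gene nor one of the regulators had log2 differences over both hairpins from -0.44 (SGSH, a heparan sulfate sulfatase) to 0.35 (NPC2, a soluble cholesterol carrier). With sh-B7-H3 (2) alone they ran from -0.61 (SGSH) to 0.47 (PSAP), and with sh-B7-H3 (1) alone from -0.27 (SGSH) to 0.43 (NPC2). All 9 called members, and no other member, had libraries that did not overlap between knockdown and control, against 23% of all genes tested. An exact permutation test over the 9 libraries (two-sided) gave p = 0.0119 for 8 of the 9, the smallest it can give, and p = 0.0238 for CTSB. Groups that do not overlap give a p at or near that smallest value, so these p-values add nothing to the separation. Beside these differences, 2 of the 8 macrophage markers tested were higher and 0 lower (CSF1R, log2 difference 2.18, and CD14, 1.49). C1QA, C1QB, C1QC, LYZ2, TYROBP and FCER1G were not called. CD14 did not mark bulk material: bulk against sorted it was not called with sh-NC (0.48, adjusted p = 0.133) and was lower with sh-B7-H3 (1) (-0.60, adjusted p = 0.00924). The summed macrophage level, CD14 included, was 35.4 to 46.7 in sh-NC. It was 73.5 to 107 in 5 of the 6 knockdown libraries and 976 in sh-B7-H3 (2) replicate 1. Renal epithelial markers were summed at 1248 to 1403 in sh-NC and at 2269 to 2653 with knockdown. Their part in the result was not tested. Without sh-B7-H3 (2) replicate 1, 3 members were higher and 5 lower, and CTSB was no longer called.

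Several of the 9 calls depended on the scaling or on single libraries. In the FPKM as deposited, where the median of all genes lay 0.20 above 0, 4 members were higher and 1 lower, and RRAGC, SQSTM1, LIPA and ATP6V1A were no longer called. Without sorted sh-NC replicate 2, the control library rich in MIR6236, 5 members remained called and GPNMB, SQSTM1, CTSB and ATP6V1A were lost. SQSTM1 and ATP6V1A were also lost without sh-NC replicate 3, and CTSB without sh-NC replicate 1 or without any one of the sh-B7-H3 (2) libraries. Calls over all genes moved from 2344 to between 1414 and 2584 with 1 library left out.

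The hairpins were also set against each other, 3 libraries against 3. Of the 39 members tested, 0 were called with limma, beside 3.4% of all genes. At an unadjusted p under 0.05 there were 9 of the 39, near the 22% of all genes. The same replicate numbers deviated together in these groups, which was seen in these same data and is not stated by the labels. With the replicate number as a block 8 members were called, beside 16.6% of all genes. In that fit FNIP1, SQSTM1, HEXA, NAGLU and ATP6V1A were higher with sh-B7-H3 (1), by log2 differences of 0.26 to 0.39, and NPC1, CTSB and ATP6V0D2 were lower, by -0.25 to -1.31. The largest was ATP6V0D2 (-1.31 ± 0.28, adjusted p = 0.0406 with the block and 0.0516 without it), whose 3 libraries with sh-B7-H3 (1) all lay below the 3 with sh-B7-H3 (2).

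**Figure D2:**
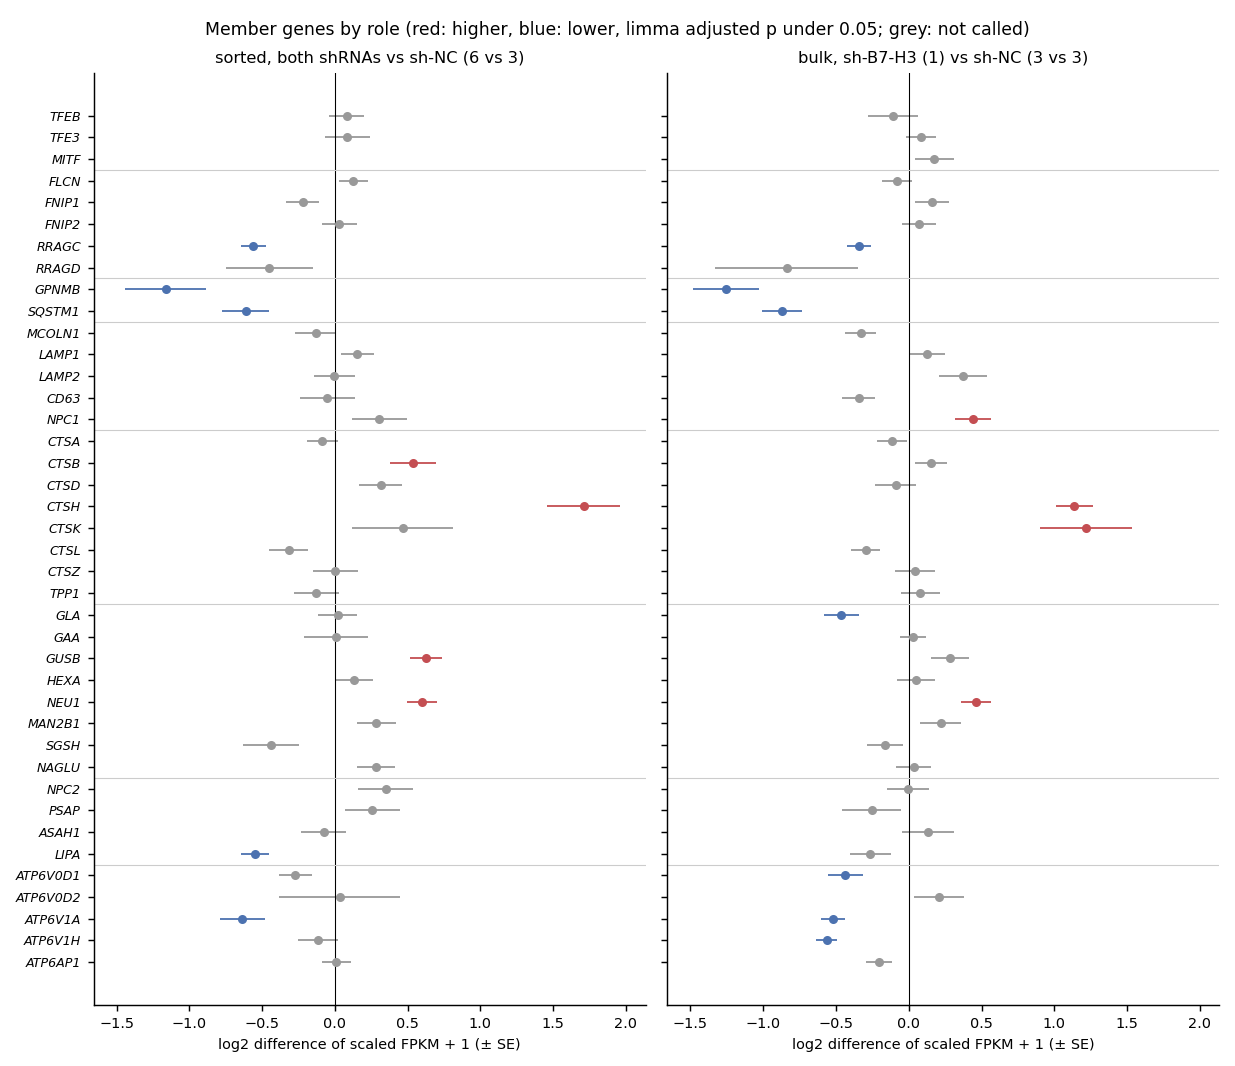
Log2 difference of scaled FPKM + 1 (x axis, with its standard error) for the 40 members, grouped by role from the transcription factors at the top to the V-ATPase at the bottom. The left panel sets the 6 sorted knockdown libraries against 3 sorted sh-NC and the right panel 3 bulk sh-B7-H3 (1) against 3 bulk sh-NC. Called members are red where higher and blue where lower. GPNMB, SQSTM1, RRAGC and ATP6V1A are lower and CTSH and NEU1 higher in both panels, and MITF has no point on the left because it was too low to test.

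In bulk tumors, sh-B7-H3 (1) was compared with sh-NC in other libraries than the sorted ones, from tumors of the same transduced cells. All 40 members were tested, 4 were higher and 7 lower, which is 27.5% of them against 21.4% of all 11800 genes. The median log2 difference was 0.01 over the members and 0.02 over all genes. Of the 9 members called in the sorted cells over both hairpins, 6 were also called in bulk (66.7%, and 54.5% of the 11 bulk calls). They were GPNMB, SQSTM1, RRAGC, ATP6V1A, CTSH and NEU1, and all 6 went the same way. In sorted cells with sh-B7-H3 (1) alone, the hairpin used in bulk, SQSTM1 and ATP6V1A were not called. The same share over all genes is not given, so the overlap cannot be read as particular to the members.

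In the bulk tumors GPNMB stood at 72.9, 73.7 and 71.8 scaled FPKM with sh-NC and at 25.2, 44.8 and 23.5 with sh-B7-H3 (1). The control values lay close together and far above the knockdown values, and GPNMB fell by 1.26 ± 0.23 on the log2 scale (0.418-fold, adjusted p = 0.0132). SQSTM1 stood at 826, 800 and 934 with sh-NC and at 413, 534 and 456 with sh-B7-H3 (1), and fell by 0.87 ± 0.14 (0.546-fold, adjusted p = 0.00845). RRAGC stood at 53, 54 and 48.8 with sh-NC and at 42.2, 39.9 and 40 with sh-B7-H3 (1), and fell by 0.34 ± 0.08 (0.789-fold, adjusted p = 0.0315). None of the 3 genes overlapped between the groups, but neither did 44.5% of all genes in this comparison.

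Of the 5 pump subunits, 3 were lower in bulk and 0 higher, where 8.52% of all genes were lower and 12.8% higher. None of the 5 passed the interaction test given further on, which does not show equal effects. Sorted minus bulk was -0.83 ± 0.23 for ATP6V0D2, 0.52 ± 0.20 for ATP6V1H (adjusted p = 0.283) and 0.07 to 0.25 for ATP6V1A, ATP6AP1 and ATP6V0D1. In sorted cells with the same hairpin ATP6V1H differed by only -0.04 ± 0.18 (adjusted p = 0.927). ATP6V1A stood at 66.8, 60.1 and 64.6 with sh-NC and at 43.8, 44.9 and 43.6 with sh-B7-H3 (1), a fall of 0.52 ± 0.08 (adjusted p = 0.00831). ATP6V1H stood at 53.3, 52.2 and 51.8 with sh-NC and at 35.2, 35.4 and 34.7 with sh-B7-H3 (1), a fall of 0.56 ± 0.075 (adjusted p = 0.00513). ATP6V0D1 stood at 105, 114 and 97.7 with sh-NC and at 85.1, 81.5 and 67.5 with sh-B7-H3 (1), a fall of 0.44 ± 0.12 (adjusted p = 0.0422). None of these 3 overlapped between the groups, beside 44.5% of all genes, and the knockdown replicates of ATP6V1A and ATP6V1H lay close together. ATP6V0D2 stood at 0.894, 0.512 and 1.22 with sh-NC and at 1.25, 0.903 and 1.29 with sh-B7-H3 (1) and was not called (log2 difference 0.21 ± 0.17, adjusted p = 0.392).

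GLA, which holds 2 copies of the E-box core, stood at 18.7, 19.7 and 19.9 with sh-NC and at 12.8, 12.4 and 16.5 with sh-B7-H3 (1) in bulk. The groups did not overlap and GLA fell by 0.46 ± 0.12 (0.724-fold, adjusted p = 0.0365). Of the 13 members with CACGTG in the promoter window, 4 were lower in bulk (RRAGC, ATP6V1A, GLA and ATP6V0D1) and 0 higher, where 8.52% of all genes were lower and 12.8% higher. The calls of RRAGC, GLA and ATP6V0D1 were each lost in most of the alternative settings and in most fits that left out 1 library. In the sorted cells 2 of the 13 were lower and 0 higher, where 7.92% of all genes were lower and 12.6% higher. Of the 21 members with a window that lacks it, 2 were higher and 2 lower in bulk, and 2 were higher and 3 lower in the sorted cells, with 20 tested. Of the 6 members with no window, 2 were higher and 1 lower in bulk, and 2 were higher and 0 lower in the sorted cells. These counts are a description of letters in a window and not of binding.

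Of the rising genes in bulk, CTSH stood at 58, 62.1 and 65.3 with sh-NC and at 162, 121 and 132 with sh-B7-H3 (1). It rose by a log2 difference of 1.14 ± 0.13 (2.2-fold, adjusted p = 0.00345), smaller in size than in the sorted cells with the same hairpin (1.91 ± 0.24), and the difference between the materials was 0.77 ± 0.29 and did not pass (adjusted p = 0.281). NEU1 stood at 19.2, 21.6 and 19.4 with sh-NC and at 31.3, 26.1 and 26.9 with sh-B7-H3 (1), a rise of 0.46 ± 0.10 (1.38-fold, adjusted p = 0.0247). NPC1 stood at 12.3, 12 and 9.85 with sh-NC and at 16.8, 13.9 and 16.7 with sh-B7-H3 (1), a rise of 0.44 ± 0.12 (1.36-fold, adjusted p = 0.0441). All 3 were separated from their controls in every library, beside 44.5% of all genes.

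CTSK, known from osteoclasts and from cells that degrade collagen, stood at 2.75, 5.36 and 3.75 with sh-NC and at 14.4, 12.1 and 6.11 with sh-B7-H3 (1) in bulk. It was the largest rise there, a log2 difference of 1.22 ± 0.32 (2.33-fold, adjusted p = 0.037). Fibroblast markers moved beside it: 6 of the 9 tested were higher and 1 lower, COL1A1 by a log2 difference of 2.16, and the summed level of the 10 genes was 155 to 271 with sh-NC and 427 to 847 with sh-B7-H3 (1), with 1 of the 10 under 1 scaled FPKM in all sh-NC libraries. The part of these cells in the CTSK result was not tested. Macrophage markers were 1 higher (CD14) and 1 lower of 15 tested, with summed levels of 1049 to 1785 and 1035 to 1870. T cell markers, summed at 2.6 to 2.98 with sh-NC and 6.62 to 21.8 with sh-B7-H3 (1), did not overlap, and the 2 tested, CD3E (3.37-fold) and CD3G (3.33-fold), were both higher. Renal epithelial markers, summed at 1076 to 1230 and 1472 to 1768, did not overlap either, with 4 of 10 higher (EPCAM 6.27-fold) and 0 lower. The part of these cells in the bulk differences of the members was not tested.

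The members called in the sorted cells alone gave these bulk values. CTSB stood at 195, 217 and 242 with sh-NC and at 246, 248 and 230 with sh-B7-H3 (1), with overlap (log2 difference 0.15 ± 0.11, adjusted p = 0.347). GUSB stood at 31.6, 38.8 and 38.1 with sh-NC and at 46.8, 48.4 and 38 with sh-B7-H3 (1) (0.28 ± 0.13, adjusted p = 0.149). LIPA stood at 29.5, 37.2 and 39.4 with sh-NC and at 28, 33.1 and 26.5 with sh-B7-H3 (1) (-0.26 ± 0.14, adjusted p = 0.2). In each of the 3 genes at least 1 library of one group lay within the range of the other.

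The transcription factors and the folliculin complex were not called in bulk either. TFEB stood at 6.65, 8.65 and 8.06 with sh-NC and at 6.51, 9.25 and 5.93 with sh-B7-H3 (1) (log2 difference -0.11 ± 0.17, adjusted p = 0.665). TFE3 stood at 15.6, 15.9 and 16.3 with sh-NC and at 16.7, 19.2 and 15.2 with sh-B7-H3 (1) (0.09 ± 0.10, adjusted p = 0.571). MITF stood at 0.776, 0.722 and 1.06 with sh-NC and at 1.06, 1.33 and 0.878 with sh-B7-H3 (1) (0.17 ± 0.13, adjusted p = 0.367). The knockdown values of all 3 overlapped the control values.

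FLCN stood at 11.8, 12.2 and 10.6 with sh-NC and at 11, 11.9 and 9.81 with sh-B7-H3 (1) (-0.08 ± 0.10, adjusted p = 0.6). FNIP1 stood at 13.8, 11.3 and 12.7 with sh-NC and at 14.8, 12.4 and 15.4 with sh-B7-H3 (1) (0.16 ± 0.12, adjusted p = 0.353). FNIP2 stood at 8.65, 8.39 and 6.57 with sh-NC and at 8.32, 8.29 and 8.12 with sh-B7-H3 (1) (0.07 ± 0.12, adjusted p = 0.691). RRAGD had the widest spread of the Rag and folliculin genes, at 6.49, 3.1 and 4.08 with sh-NC and at 1.93, 5.16 and 0.506 with sh-B7-H3 (1) (-0.84 ± 0.49, adjusted p = 0.242).

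The 18 remaining members had bulk log2 differences from -0.34 (CD63) to 0.37 (LAMP2, the partner of LAMP1). In all, 15 of the 40 members did not overlap between the bulk groups, of which 11 were called, against 44.5% of all genes tested. With 3 libraries against 3 an exact permutation test cannot go below p = 0.1. Without bulk sh-B7-H3 (1) replicate 1 only 2 members were called, CTSH and ATP6V1H, and without any one of the bulk sh-NC libraries 4 or 5. Calls over all genes also moved, from 2520 to between 546 and 3793 with 1 library left out.

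The sh-B7-H3 (1) effect was compared between sorted cells and bulk tumors by an interaction term over 12 libraries. Of the 40 members 0 passed with limma, beside 0.464% of all 12062 genes. At an unadjusted p under 0.05 there were 5 of the 40, against 14.6% of all genes. The largest differences, sorted minus bulk, were -1.08 ± 0.49 for CTSK (adjusted p = 0.341) and -0.83 ± 0.23 for ATP6V0D2 (adjusted p = 0.179). For GPNMB the difference was 0.22 ± 0.32 (adjusted p = 0.741).

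Bulk tumors were then set against sorted cells with the same shRNA, which differ in their content of other cells and in handling. The methods describe tissue dissociation and magnetic columns for the sorted cells. They name both the RNeasy Plus Micro and the RNeasy Mini kit for the RNA. Cell content and handling therefore cannot be told apart in these comparisons. Macrophage markers separated the materials, with 14 of 15 (all but CD14) higher in bulk sh-NC and a median log2 difference of 3.90. The members did not follow them. Under sh-NC, 5 members were higher and 4 lower in bulk, which is 23.1% of the 39 tested against 16.9% of all genes, with log2 differences over all of them from -1.01 to 0.89. GPNMB, which macrophages are also known to express, stood at 72.9, 73.7 and 71.8 in bulk and at 85.8, 85.6 and 72.3 in sorted sh-NC, and the difference did not pass (log2 difference -0.15 ± 0.13, adjusted p = 0.448).

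Higher in bulk under sh-NC were PSAP, the precursor of the saposins (log2 difference 0.67 ± 0.17, adjusted p = 0.0373), CTSZ, a carboxypeptidase (0.63 ± 0.14, adjusted p = 0.0211), TFEB (0.61 ± 0.13, adjusted p = 0.0209), MAN2B1, an alpha-mannosidase (0.58 ± 0.16, adjusted p = 0.045), and FLCN (0.50 ± 0.13, adjusted p = 0.0317). TFEB stood at 6.65, 8.65 and 8.06 in bulk against 4.53, 4.53 and 5.1 in sorted cells, without overlap. Lower in bulk were LAMP2 (-1.01 ± 0.16, adjusted p = 0.0052), ATP6V1A (-0.94 ± 0.16, adjusted p = 0.00745), ASAH1, acid ceramidase (-0.83 ± 0.17, adjusted p = 0.0149), and FNIP1 (-0.66 ± 0.12, adjusted p = 0.0109). LAMP2 stood at 219, 199 and 225 in bulk and at 378, 466 and 455 in sorted cells, so the bulk level was 0.498 of the sorted one. These calls are not stable, since 0 were left without any one of the 3 bulk sh-NC libraries and 2 without sorted sh-NC replicate 2, against 18 without sorted sh-NC replicate 1. In the FPKM as deposited 0 were higher and 2 lower. Calls over all genes moved as well, from 1924 to between 139 and 4436 with 1 library left out, so such moves are not particular to the members.

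**Figure D3:**
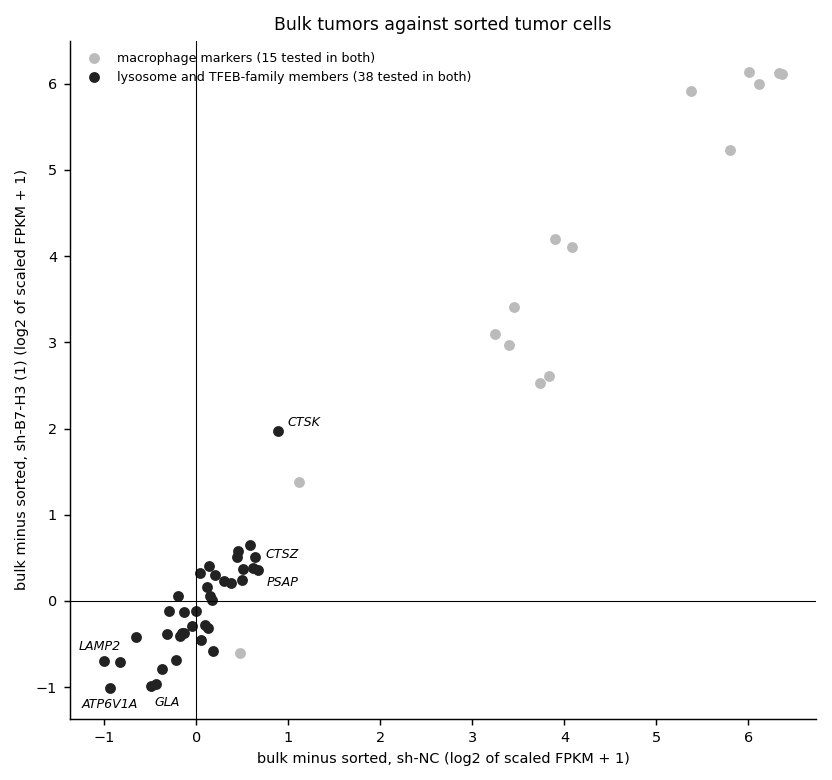
Log2 difference of bulk minus sorted libraries (scaled FPKM + 1) for sh-NC on the x axis and for sh-B7-H3 (1) on the y axis. Each black point is a member gene (38 tested in both) and each grey point a macrophage marker (15). Most macrophage markers sit far to the upper right, while the members stay near 0 on both axes and CTSK lies highest among them.

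Under sh-B7-H3 (1), 7 members were higher and 10 lower in bulk, which is 44.7% of the 38 tested against 38.2% of all genes. The 5 largest were CTSK (log2 difference 1.97 ± 0.29, adjusted p = 0.0032), MAN2B1 (0.65 ± 0.14), GAA, acid alpha-glucosidase (0.58 ± 0.18), CTSZ (0.51 ± 0.14) and TFE3 (0.51 ± 0.13). CTSK stood at 14.4, 12.1 and 6.11 in bulk and at 2.21, 1.25 and 2.31 in sorted cells, without overlap. The 5 smallest were ATP6V1A (-1.01 ± 0.10, adjusted p = 0.000512), GLA (-0.99 ± 0.16), ATP6V1H (-0.96 ± 0.12), ASAH1 (-0.71 ± 0.20) and LAMP2 (-0.70 ± 0.19). ATP6V1A stood at 43.8, 44.9 and 43.6 in bulk and at 97.1, 83.5 and 88.5 in sorted cells. Of the 9 members called under sh-NC, 7 were called here too (77.8%, and 41.2% of the 17), each in the same direction, and these 2 comparisons share no library. The same share over all genes is not given, so this overlap cannot be read as particular to the members. The split of calls turned on the scaling, with 1 higher and 17 lower in the FPKM as deposited, where the median of all genes lay at -0.23, and 10 higher and 4 lower after quantile normalization. The count was 4 without bulk sh-B7-H3 (1) replicate 1, 6 without sorted sh-B7-H3 (1) replicate 1 or 2 and 11 without its replicate 3. Calls over all genes fell too, from 4464 to between 1674 and 3814 with 1 library left out.

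Other lysosome genes from 4 lists also had calls in both directions. In the sorted cells, 13 of the 90 tested were higher and 4 lower (18.9%, against 20.5% of all genes), with a median log2 difference of 0.03. Among 41 other hydrolases and cofactors 6 were higher, led by CTSS, a cathepsin of antigen presentation (3.63 ± 0.48, adjusted p = 0.000379), CTSC, which activates granule proteases (2.11 ± 0.20, adjusted p = 3.53e-05), and SIAE, a sialic acid esterase (1.21 ± 0.12, adjusted p = 4.4e-05), and 2 were lower, HYAL1, a hyaluronidase (-1.11 ± 0.16, adjusted p = 0.000564), and CTSF (-0.40 ± 0.11, adjusted p = 0.0277). CTSS stood at 5.1, 6.13 and 5.69 scaled FPKM in sorted sh-NC, at 117, 74.9 and 66.9 with sh-B7-H3 (1) and at 258, 43.7 and 42 with sh-B7-H3 (2). Even its lowest knockdown value was far above the controls, and its highest was in the library that holds macrophage markers.

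Among 26 other membrane and sorting proteins 3 were higher (CD68, a lysosomal glycoprotein rich in macrophages, 1.04 ± 0.16, CLN3, 0.90 ± 0.09, and M6PR, a mannose 6-phosphate receptor, 0.57 ± 0.15) and 1 lower (TMEM106B, -0.57 ± 0.12). Among 16 other V-ATPase subunits 4 were higher and 0 lower, led by ATP6V1B1 (0.73 ± 0.14), TCIRG1 (0.72 ± 0.15) and ATP6V0A4 (0.65 ± 0.11). The first and last of these are isoforms of acid-secreting epithelia, and ATP6V1B1 stood only at 0.186 to 0.661 in sh-NC and at 1.06 to 1.82 with knockdown. Of 7 other Rag, Ragulator and TFE genes RRAGA was lower (-0.47 ± 0.15, adjusted p = 0.0447) and of 23 autophagy genes VPS11 (-0.43 ± 0.10, adjusted p = 0.00906), with 0 higher in either list.

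In bulk, 14 of the 92 other lysosome genes tested were higher and 7 lower (22.8%, against 21.4% of all genes). The hydrolases gave 9 higher, led by CTSS (1.07 ± 0.235), MAN2B2 (0.84 ± 0.13) and SIAE (0.82 ± 0.18), and 1 lower, HYAL1 (-0.92 ± 0.12). Of 28 membrane and sorting proteins 4 were higher, led by CD68 (0.65 ± 0.13), CLN3 (0.64 ± 0.12) and SORT1, sortilin (0.55 ± 0.14), and 0 lower. The other V-ATPase subunits gave 1 higher, ATP6V1B1 (1.31 ± 0.19), and 5 lower, led by ATP6V0B (-0.90 ± 0.21), ATP6V1B2 (-0.75 ± 0.10) and ATP6V1G1 (-0.60 ± 0.16). None of the 5 lower subunits was called in sorted cells with the same hairpin. RRAGA was lower there too (-0.41 ± 0.10, adjusted p = 0.0305), and of 23 autophagy genes 4 were lower, led by GABARAPL2 (-0.62 ± 0.115), VPS11 (-0.54 ± 0.13) and ATG7 (-0.38 ± 0.09), and 0 higher.

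**Figure D4:**
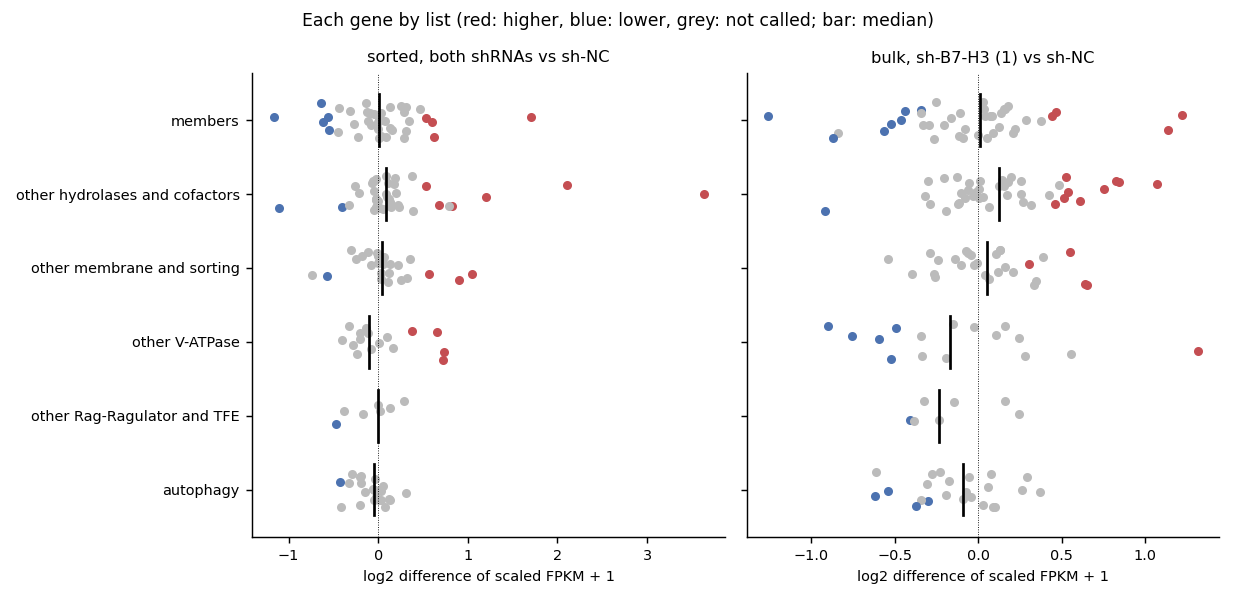
Log2 difference of scaled FPKM + 1 (x axis) for each member and for each gene of 5 further lists (y axis, points spread at random in height), in sorted cells with both shRNAs (left) and in bulk tumors (right), each against sh-NC. Red points were called higher, blue lower, and the black bar is the list's median. Medians stay between -0.24 and 0.12, CTSS lies farthest to the right in the sorted cells, and blue points gather in the V-ATPase list in bulk.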

How the data were processed

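RNA-seq of 15 libraries (5 groups of 3, grouped by GEO's labels) was analysed from 1 table of FPKM. The authors' methods name the VIPER pipeline for differential expression and the submitters' processing notes the build mm10, while the aligner and counter are not given in the sources used here. The deposited FPKM, 1 column per library, are normalised to library total and transcript length. The labels name Illumina Stranded mRNA Prep and the methods KAPA mRNA HyperPrep, so the kit is uncertain. A second deposited table, on a log2 scale for a subset of the genes, was not used. Of 24917 entries, 26 with date-like symbols were left out.

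FPKM were divided by median-ratio factors (0.65 to 1.18, over 9872 genes at 1 or more in every library), because MIR6236 takes a different share of each library. The filter kept genes at 1 scaled FPKM or more in at least 3 of the libraries compared, and limma 3.58.1 in R 4.3.3 (mean-variance trend) was run on log2 of scaled FPKM + 1, with Benjamini-Hochberg adjustment over all genes and calls at an adjusted p under 0.05. Fold changes are on that scale and understate the change of low genes. The read depth is unknown, so no counting intervals are given. Errors are standard errors of the fit or SD of 3 libraries. The methods speak of 3 biological samples, and the labels do not say whether they are separate animals, so p-values measure the spread between these libraries. The fit was tested on simulated data.

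Whether equal replicate numbers mark paired libraries was examined by correlating deviations from group means. The same-numbered libraries of sorted sh-B7-H3 (1) and (2) correlated at 0.21 to 0.23 in all 3 pairs, and no other pair of groups had all 3 above 0.1. Libraries with unlike numbers correlated at up to 0.54 elsewhere (bulk sh-NC with bulk sh-B7-H3 (1)), so whether the numbers mark pairs is uncertain. Values were thus also fitted with the replicate number as a block. The other alternatives were FPKM as deposited, quantile normalization, no filter, a pseudocount of 0.1, all 5 groups in 1 fit, and each library left out. A fit without the 3 libraries with the highest shares of MIR6236 was added after seeing the data.

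The members, the other gene lists and the markers were chosen with earlier results of these data known. Values in every library are given for members called in a knockdown comparison and for TFEB, TFE3, MITF, FLCN, FNIP1, FNIP2, RRAGC, RRAGD, GPNMB, CTSK and ATP6V0D2, the other members are given by range, and for bulk against sorted the 5 largest and 5 smallest called differences are named. From each further list up to 3 called genes in each direction are named. T cell, leukocyte and endothelial markers were summed at 0.47 to 2.03, 19.3 to 27.6 and 0.312 to 0.907 scaled FPKM in 8 sorted libraries, and at 23.9, 258 and 24.2 in sorted sh-B7-H3 (2) replicate 1. Promoter windows are from RefSeq (GRCm38.p6).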

Additional observations from a re-analysis of the deposited data

Results flagged for a closer look

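Among the lysosome genes outside the 40 members, the effect of sh-B7-H3 (1) differed between sorted cells and bulk tumors for CTSS and CTSC by limma's interaction term over 12 libraries. For CTSS the sorted effect exceeded the bulk effect by 2.61 ± 0.34 on the log2 scale (adjusted p = 0.00854). For CTSC the excess was 1.33 ± 0.24 (adjusted p = 0.0423). CTSC stood at 7.87, 9.2 and 8.15 scaled FPKM in sorted sh-NC and at 49.2, 36.4 and 32.8 in sorted sh-B7-H3 (1), against 23, 23.8 and 33.6 in bulk sh-NC and 47.7, 44.4 and 43.7 in bulk sh-B7-H3 (1). The lowest level of CTSC was thus in sorted sh-NC, and the knockdown levels of the materials overlapped. Both genes stood higher in bulk than in sorted sh-NC (CTSS by a log2 difference of 4.55 and CTSC by 1.54), as the macrophage markers did, and the part of other cells in the result was not tested.

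Within the 6 sorted knockdown libraries, a screen set a single library apart in 2 of the 30 further lysosome genes and in 0 of the 40 members. That is near the 5% that chance sets apart. GM2A, a lipid-transfer cofactor, was highest at 25.3 scaled FPKM in sh-B7-H3 (2) replicate 1, the library that holds macrophage markers, against 17.8 to 19.9 in the other 5. CLN3 was lowest at 3.92 in sh-B7-H3 (1) replicate 2, against 4.23 to 4.41.

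That these screens also took in lysosome genes outside the members was decided after their values were seen.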

How the results depend on the processing

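Among the 829 refits of the 62 called member differences, 537 kept their call and 292 lost it, and none changed direction. The number of members called moved by over 1.5 times as follows. In the FPKM as deposited it was 4 (sorted sh-B7-H3 (1), 7 in the report), 5 (both hairpins, 9), 5 (bulk, 11), 2 (bulk against sorted sh-NC, 9) and 1 (one hairpin against the other, 0), and the median of all genes moved to 0.17 to 0.21 in the sorted knockdown comparisons. Without a filter bulk gave 7. With all 5 groups in 1 fit, sorted sh-B7-H3 (2) gave 15 (9), bulk against sorted sh-NC 14 and the hairpins 1, as they also did with quantile normalization and with a pseudocount of 0.1. With the replicate block, sorted sh-B7-H3 (1) gave 2, sorted sh-B7-H3 (2) 5, bulk 5, bulk against sorted sh-B7-H3 (1) 11 (17) and the hairpins 8, but only in the hairpins did all same-numbered libraries deviate together (lowest correlation in another pair of groups -0.46). Both hairpins against sh-NC gave 8 with the block. Without the 3 libraries high in MIR6236, sorted sh-B7-H3 (1) gave 2, sorted sh-B7-H3 (2) 3, both hairpins 5 and bulk against sorted sh-NC 0. The calls over all genes moved in these settings too. They ranged over 915 to 2146 for sorted sh-B7-H3 (1) (1497 in the report), 1414 to 3197 for both hairpins (2344) and 961 to 2507 for bulk (2520). For bulk against sorted sh-NC they ranged over 86 to 3082 (1924). The cause of these moves was not tested.

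Leaving out 1 library gave 2 to 7 members for sorted sh-B7-H3 (1), where sh-NC replicates 2 (2) and 3 (3) and each knockdown library (2) lowered the count, and 1 to 15 for sorted sh-B7-H3 (2), where it was 15 without sh-NC replicate 1, 3 without sh-NC replicate 2, 3 without knockdown replicate 2 and 1 without knockdown replicate 3. It gave 5 to 11 for both hairpins (5 without sh-NC replicate 2), 0 to 2 for the hairpins (2 without sh-B7-H3 (2) replicate 1), 2 to 13 for bulk, 0 to 18 for bulk against sorted sh-NC, 4 to 14 for bulk against sorted sh-B7-H3 (1) and 0 to 0 for the interaction. Calls over all genes moved as well with 1 library left out. They ranged over 722 to 1948 for sorted sh-B7-H3 (1) (1497 in the report), 962 to 3614 for sorted sh-B7-H3 (2) (2150) and 546 to 3793 for bulk (2520). For bulk against sorted sh-NC they ranged over 139 to 4436 (1924). CTSH kept its call in all refits of its knockdown comparisons. Depth is unknown, and 3 libraries a group limit what can be called.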
